A study of Mus musculus with 72 samples.

Results

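SmcHD1 knockout clone A3 was set against its parental line, iXist-ChrX-Dom wild type (WT), on days 2 and 3 of differentiation, up to the onset of SmcHD1 recruitment to the inactive X chromosome (Xi). The 8 libraries were chosen by their labels alone, as the 4 of A3 and the 4 of WT on those days among 72 libraries in the series, with 2 replicates for each genotype and day. iXist-ChrX-Dom is a female mouse embryonic stem cell line, Dom/129S x Cast, in which the promoter of the endogenous Xist gene on the 129S allele was replaced with a TetOn promoter, so that doxycycline induces Xist from the Dom X chromosome. All 8 cultures were taken out of serum and LIF, plated without feeder cells in N2B27 medium for differentiation towards neural precursor cells (NPCs) and kept in doxycycline. A3 carries CRISPR-Cas9 mutations of SmcHD1 on both alleles. It is 1 clone, so that the mutation and what else came with the cloning cannot be told apart. Chromatin-associated RNA was sequenced (ChrRNA-seq), which weights the measurement towards RNA that is being transcribed, and fragments that covered a known variant were also counted by allele. By the study's account the replicates are repeat time courses, so that the day 2 and day 3 libraries of one replicate number belong to one series and each genotype has 2 series. Tests over the 8 libraries take the days of a series as separate samples, and the same tests with the series as the unit are given beside the main results.

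Xist RNA coats the chromosome that it is transcribed from and recruits SPEN and Polycomb complexes, which shut down most of the genes on it. SmcHD1 is a non-canonical member of the SMC family of chromosome proteins and joins the Xi after these factors, with differentiation. It is best known for keeping Xi genes and some imprinted genes silent. Leaving the naive pluripotent state of the embryonic stem cell is the first step of differentiation, and the transcription factors that hold that state are shut down within days.

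The libraries held between 18357510 and 28267262 counted fragments, of which between 46.6% and 48.7% could be assigned to an allele. Stem cell markers were present in all 8, with Pou5f1 between 41.9 and 82.3 RPM (fragments per 1000000 counted). Among neural precursor markers Pax6 lay between 2.35 and 8.28 RPM, and the deposited table lists Sox1 at 0 in every library, as it does Sox2. Each of them overlaps another gene on the same strand in the annotation used (Gm5607 and Sox2ot), so that their 0 is no measure of the RNA. The 16 feeder fibroblast markers summed to between 469 and 637 RPM in WT and between 348 and 528 RPM in A3. Most of that sum was Fn1, a matrix gene that is not particular to fibroblasts, with means of 484 RPM in WT and 385 RPM in A3. Of the 14 feeder markers tested 0 passed in edgeR (1 at an unadjusted p under 0.05), and 11 had a positive log2 fold change. Their defining collagen, Col1a1, did not exceed 2.05 RPM in any library.

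WT replicates 1 and 2 differed as populations. Over 253 autosomal windows of 10 Mb, the Dom share of allelic fragments, Dom/(Dom+Cast), differed by more than 0.1 between the WT replicates in 7 windows, on chromosomes 5, 6 and 11, and in 0 windows between the A3 replicates or between the genotype means. On chromosome 6, in the stretch from A2m to Tapbpl that holds Nanog and Dppa3, the Dom share was 0.512 and 0.510 in WT replicate 1 on days 2 and 3, 0.353 and 0.355 in WT replicate 2, and 0.536 to 0.552 in A3. On chromosome 11 from 100 to 130 Mb it was WT replicate 1 that stood apart, at 0.486 to 0.503, against 0.368 to 0.401 in WT replicate 2 and 0.361 to 0.386 in A3. Results are therefore also given against each WT replicate.

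Smchd1 RNA was present in both genotypes. It was at 534, 516, 585 and 523 RPM in WT (day 2 replicates 1 and 2, then day 3 replicates 1 and 2, the order used throughout) and at 467, 554, 510 and 579 RPM in A3, with a log2 fold change of -0.02 (SE 0.12, edgeR adjusted p = 0.98). The knockout acts through the protein, so that this level does not check the labels of the A3 libraries. Lrif1, whose product binds SmcHD1, had a log2 fold change of 0.28 (SE 0.16, edgeR adjusted p = 0.60). Of 19 genes for SmcHD1 and the cohesin and condensin complexes 0 passed the edgeR test (1 at an unadjusted p under 0.05, Ncapd2 of condensin, at -0.29).

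Xist was higher in A3 than in WT on both days. Its level was 5048, 5588, 7648 and 8899 RPM in WT and 6802, 6961, 12040 and 11237 RPM in A3. Both A3 libraries lay above both WT libraries on either day, and every genotype gained Xist from day 2 to day 3. The group means were 5318 ± 381 RPM in WT and 6882 ± 113 RPM in A3 on day 2, and 8274 ± 885 and 11638 ± 567 RPM on day 3 (SD, n = 2). The mean difference was 0.43 on the log2 scale, with an exact two-sided permutation p of 0.0556, which is the smallest that the 36 arrangements within days allow. With the series as the unit the exact permutation p was 0.333, the smallest that 6 arrangements allow. In the fit over all genes the log2 fold change was 0.44 (SE 0.13, edgeR adjusted p = 0.18), so the difference did not pass the threshold there. Between 99.85% and 99.93% of allelic Xist fragments were Dom in these libraries. Of the 7 genes tested around the X inactivation centre 0 passed the edgeR test and 3 had an unadjusted p under 0.05. Ftx, a noncoding gene upstream of Xist, was at 184, 181, 212 and 251 RPM in WT and at 264, 322, 287 and 292 RPM in A3, without overlap between the genotypes (log2 fold change 0.51, edgeR adjusted p = 0.12).

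**Figure D1:**
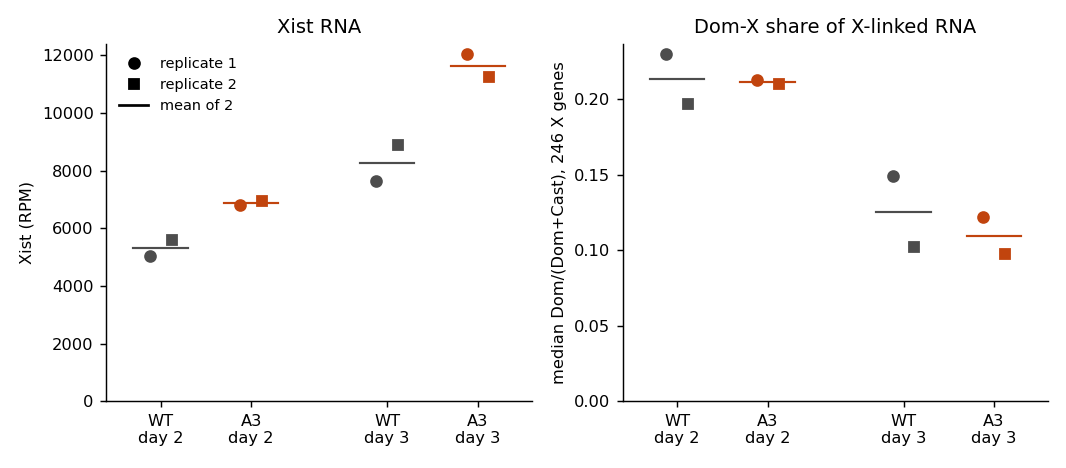
Left, Xist in RPM in each library; right, the median Dom/(Dom+Cast) over 246 X-linked genes in each library, for WT (grey) and A3 (orange) on days 2 and 3, with circles for replicate 1, squares for replicate 2 and a line at their mean. Xist lies higher in A3 on either day, while the A3 medians lie between the WT medians on day 2 and overlap them on day 3.

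The extent of silencing did not separate the genotypes. The Dom-X share is the Dom/(Dom+Cast) of an X-linked gene, and thus the share of its RNA that comes from the Xi. It was examined over the 246 genes of the deposited Dom allele ratio table, all of which had allelic fragments in the 8 libraries. The median share per library was 0.230, 0.197, 0.149 and 0.102 in WT and 0.213, 0.210, 0.122 and 0.0974 in A3, against 0.514 and 0.512 in the uninduced A3 stem cells. The A3 values on day 2 lay between those of the WT replicates, and on day 3 A3 replicate 1 lay between them and A3 replicate 2 below both. The group means were 0.213 ± 0.0232 in WT and 0.212 ± 0.0018 in A3 on day 2, and 0.125 ± 0.0334 and 0.110 ± 0.0173 on day 3 (SD, n = 2). The mean difference, A3 minus WT, was -0.0089 (exact two-sided permutation p = 0.611 within days and 1 with the series as the unit), and without WT day 3 replicate 1 it was 0.0029.

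Gene by gene, 0 of 246 Dom-X shares differed between the genotypes by limma at an adjusted p under 0.05 (0%), and 15 had an unadjusted p under 0.05. The median of the 246 differences was -0.0051. With the shares of the days averaged per series, an alternative added after the data were seen, 5 genes passed in limma, with Dusp9 (0.167) and Spin4 (0.070) higher in A3 and Efhc2 (-0.20), Foxo4 (-0.10) and Tenm1 (-0.22) lower. Each of them had no more than 44 allelic fragments in its sparsest library. The direction depended on the WT replicate. Against WT replicate 1 the share was lower in A3 for 183 genes and higher for 63 (median difference -0.0224), and against WT replicate 2 it was lower for 75 and higher for 171 (median 0.0134). Neither comparison put any gene past the limma threshold (27 and 20 genes at an unadjusted p under 0.05). Over the same days the shares themselves moved in every series. From day 2 to day 3 the share fell for 180 of 246 genes by limma (73.2%), and it was lower on day 3 for 217 genes in WT replicate 1, 226 in WT replicate 2, 226 in A3 replicate 1 and 232 in A3 replicate 2. The difference in that fall between the genotypes passed the threshold for 0 genes.

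**Figure D2:**
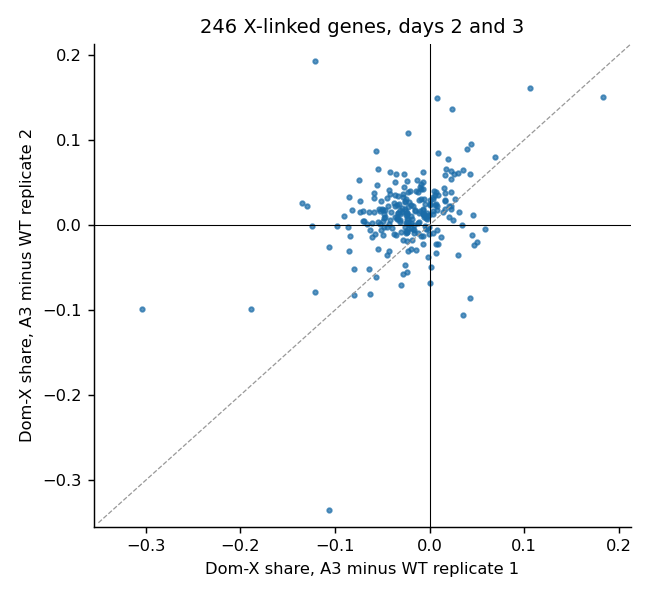
Each point is 1 of 246 X-linked genes, with the Dom-X share of A3 minus that of WT replicate 1 on the x axis and minus that of WT replicate 2 on the y axis, both averaged over days 2 and 3; the dashed line marks equal differences. Most points lie left of 0 on the x axis (183 genes) and above 0 on the y axis (171 genes).

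The study classed X-linked genes by whether their silencing depended on SmcHD1 in mouse embryonic fibroblasts, with lines from SmcHD1-null embryos. The 36 genes classed as SmcHD1-dependent had a median difference of -0.0053. The 83 partially dependent genes had a median of -0.0084 and the 67 independent ones a median of 0.0027. Each averages over 2 WT replicates that lay on different sides of A3. Against WT replicate 1 the medians of the dependent, partially dependent and independent classes were -0.0229, -0.0259 and -0.0097, and against WT replicate 2 they were 0.0196, 0.0127 and 0.0137, beside -0.0224 and 0.0134 over all 246 genes. Yipf6, Igbp1, Taf1 and Pin4 are X-linked genes of the region near Xist. Igbp1 (a regulator of protein phosphatases) had Dom-X shares of 0.301, 0.306, 0.264 and 0.218 in WT and 0.346, 0.330, 0.275 and 0.246 in A3. It was higher in A3 than in both WT libraries on day 2, while the genotypes overlapped on day 3 (difference 0.027, SE 0.020, limma adjusted p = 0.96). Yipf6 (a Golgi membrane protein) differed by 0.021 and Taf1 (a subunit of the general transcription factor TFIID) by -0.023, both with limma adjusted p = 0.96. Pin4 (a prolyl isomerase), with as few as 55 allelic fragments in a library, differed by 0.0012.

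Genes known to escape inactivation kept a higher share. Over Eif2s3x, Kdm6a, Ddx3x and Utp14a the median was 0.423, 0.383, 0.367 and 0.315 in WT and 0.397, 0.409, 0.309 and 0.293 in A3. Kdm6a, a histone demethylase gene, had shares of 0.488, 0.462, 0.444 and 0.410 in WT and 0.476, 0.483, 0.419 and 0.409 in A3. The escape genes too had lower shares on day 3 in both genotypes, and 0 of the 4 had an unadjusted limma p under 0.05 between them. The gene with the smallest limma p was Dusp9, which encodes a phosphatase of the MAP kinase pathway. Its share was 0.0417, 0.0909, 0.0556 and 0.0714 in WT and 0.350, 0.30, 0.178 and 0.100 in A3, so that every A3 library lay above every WT library. The difference of 0.167 (SE 0.039) had a limma adjusted p of 0.61 over the libraries and 0.0042 over the series, and rested on 10 to 45 allelic fragments per library. Nr0b1, which encodes a nuclear receptor of stem cells, differed by 0.043 (limma adjusted p = 0.76), and Porcn, whose product acylates Wnt proteins, by -0.14 (limma adjusted p = 0.76).

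Few genes passed the test of total RNA between the genotypes. Of 15005 genes tested, 130 passed edgeR's quasi-likelihood test at an adjusted p under 0.05 (0.866%), with 58 higher in A3 (0.387%) and 72 lower (0.48%), and 1797 had an unadjusted p under 0.05. For 83 of the 130 all 4 A3 levels lay on one side of all 4 WT levels (28 above and 55 below). Of all genes tested 625 did (4.17%), 264 of them above (1.76%) and 361 below (2.41%). The 130 were picked by a test on these same libraries, so that their larger share follows from the choice and adds no support. With the counts of days 2 and 3 summed per series, 0 of 15857 genes passed in edgeR (1041 at an unadjusted p under 0.05), so that every rise or fall called below rests on taking the days of a series as separate samples. The count also rested on single libraries: it was 0 without WT day 3 replicate 1 or without A3 day 3 replicate 2 (1430 and 1248 genes at an unadjusted p under 0.05). It was 5 without A3 day 2 replicate 2, 10 without WT day 3 replicate 2, 22 without WT day 2 replicate 1 and 27 without A3 day 3 replicate 1. Against each WT replicate alone all 130 kept their direction. The genes were chosen on these same libraries, which makes that likely, so that it is no separate check. In these fits 73 passed against replicate 1, 23 against replicate 2 and 15 against each. The A3 effect differed between days 2 and 3 for 0 of 15272 genes by edgeR (124 at an unadjusted p under 0.05).

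**Figure D3:**
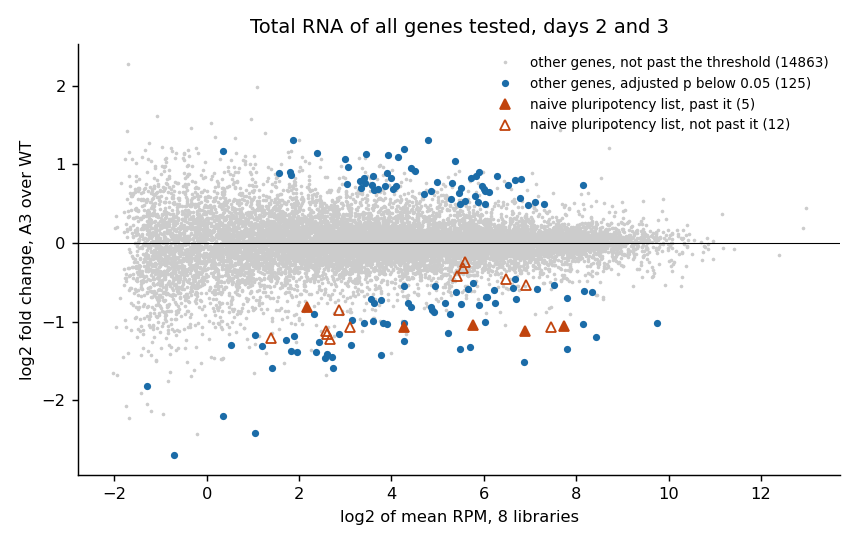
Each point is 1 of 15005 genes tested, with the log2 of its mean level in RPM over the 8 libraries on the x axis and the edgeR log2 fold change, A3 over WT, on the y axis; triangles are the 17 genes of the naive pluripotency list, filled where they passed the test. All 17 triangles lie below 0, and 5 of them passed.

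The genes of the naive pluripotent state were lower in A3. All 17 members of the list had a negative log2 fold change, with a median of -1.06 against 0.00 over all genes tested, and 5 fell at the edgeR threshold (29.4%, against 0.866% of all genes): Zfp42, Nanog, Nr5a2, Tfcp2l1 and Dppa3. Nanog and Dppa3 lie in the chromosome 6 stretch where the WT replicates differ and 47 of 49 genes were lower in A3. In 7 of the 17 the A3 levels lay below all WT levels, against 361 of all 15005 genes tested (2.41%). With the days summed per series all 17 were again negative, with a median of -1.0, and 0 of the 17 passed in edgeR. The promoters of Nanog and Zfp42 are shown because these are the best known markers of that state among the 5 and because the OCT4 and SOX2 proteins are known to act on such sequences. Capitals mark matches to the octamer core TTTGCAT and the Sox core ACAATG, searched on both strands. Each sequence covers 250 bases before to 50 bases after a start site (RefSeq, GRCm38.p6), on the plus strand for Nanog (chr6:122707239-122707538) and the minus strand for Zfp42 (chr8:43306960-43307259).
Nanog: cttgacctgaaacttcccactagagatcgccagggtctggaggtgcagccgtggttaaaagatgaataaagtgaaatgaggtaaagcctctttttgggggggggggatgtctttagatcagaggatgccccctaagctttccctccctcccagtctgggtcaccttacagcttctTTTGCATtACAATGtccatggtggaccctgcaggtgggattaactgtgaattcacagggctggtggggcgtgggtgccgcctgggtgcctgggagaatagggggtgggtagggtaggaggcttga
Zfp42: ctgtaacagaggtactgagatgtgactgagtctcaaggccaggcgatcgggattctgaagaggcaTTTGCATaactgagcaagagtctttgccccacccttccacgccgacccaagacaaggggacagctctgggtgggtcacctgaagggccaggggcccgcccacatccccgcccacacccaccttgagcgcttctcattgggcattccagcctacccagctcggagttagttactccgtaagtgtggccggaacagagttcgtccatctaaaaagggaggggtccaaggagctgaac
In the Nanog promoter the octamer core began 75 and the Sox core 67 bases before the start site, and in that of Zfp42 the octamer core began 185 bases before it. Of the list's 17 genes 13 were matched in the RefSeq table, with 17 promoters. The octamer core was found in 3 of these 17 promoters (2 genes) and the Sox core in 4 (3 genes), while 4.63% and 12.6% of all 32851 promoters of that length held these letters. The 2 Nanog promoters among them overlap and hold the same octamer and Sox matches, which are thus counted in each. Those of Nr5a2 and Tfcp2l1 held neither core.

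Nanog, a homeodomain factor that sustains self-renewal, was at 31.2, 31.6, 20.7 and 20.3 RPM in WT and at 18.6, 10.2, 11.8 and 8.89 RPM in A3. All A3 libraries lay below all WT libraries, with the day 2 level of A3 already under the day 3 level of WT, and the log2 fold change was -1.07 (SE 0.16, edgeR adjusted p = 0.03). Nanog lies in the stretch of chromosome 6 where WT replicate 2 differs from the other libraries, and its log2 fold change was -1.10 against WT replicate 1 and -1.04 against WT replicate 2 (edgeR adjusted p = 0.03 and 0.07). Zfp42 (Rex1), a zinc finger marker of naive cells on chromosome 8, was at 361, 365, 209 and 204 RPM in WT and at 223, 149, 109 and 77.0 RPM in A3. The A3 libraries lay below the WT libraries of the same day on both days, although A3 day 2 replicate 1 remained above WT on day 3 (log2 fold change -1.06, SE 0.14, edgeR adjusted p = 0.02). Nr5a2, a nuclear receptor that drives Pou5f1, was at 167, 192, 131 and 153 RPM in WT and at 108, 86.8, 69.4 and 40.6 RPM in A3. Its groups did not overlap (log2 fold change -1.12, SE 0.17, edgeR adjusted p = 0.03). Tfcp2l1, a factor downstream of LIF, was at 94.1, 70.9, 69.0 and 57.6 RPM in WT and at 52.0, 30.3, 37.6 and 23.0 RPM in A3, again without overlap.

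The other naive genes had values of the same sign without passing the test. Esrrb, an orphan nuclear receptor, had a log2 fold change of -1.06 (edgeR adjusted p = 0.09), Klf4 one of -1.07 and Prdm14 one of -1.23 (edgeR adjusted p = 0.11 and 0.07). Fgf4 (-0.24) and the LIF signal transducer Stat3 (-0.32) were the smallest. The summed level of the 17 genes was 1364, 1501, 948 and 1119 RPM in WT and 1059, 665, 676 and 421 RPM in A3. Replicate 2 of A3 had the lower sum on each day, and A3 replicate 1 on day 2 lay within the WT range. The median of the list was -0.73 with A3 replicate 1 alone, where 0 of the 17 passed in the edgeR test, and -1.35 with A3 replicate 2 alone, where 7 passed. Against WT replicate 1 it was -1.09 (5 lower) and against WT replicate 2 it was -0.84 (1 lower). In bulk samples fewer cells of a type and less RNA per cell cannot be told apart.

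The general pluripotency genes had values nearer to 0. Of 12 such genes tested, including Pou5f1 (-0.08) and Sall4 (0.01), 0 passed in edgeR (3 at an unadjusted p under 0.05) and the median was -0.13. Of 13 genes of the formative and primed states, which follow the naive state, 0 passed (4 at an unadjusted p under 0.05), 11 were positive and the median was 0.18. Dnmt3b, a DNA methyltransferase that marks these states, was at 611, 597, 606 and 656 RPM in WT and at 749, 850, 707 and 770 RPM in A3, without overlap (log2 fold change 0.32, edgeR adjusted p = 0.26). Fgf5, the classical epiblast marker, had a log2 fold change of 0.58 (edgeR adjusted p = 0.39). Tet2, which oxidises methylated DNA and is abundant in naive cells, was the 1 gene of 12 for DNA methylation that passed. It was at 103, 103, 73.1 and 70.1 RPM in WT and at 61.6, 36.01, 44.3 and 30.6 RPM in A3 (log2 fold change -1.01, SE 0.15, edgeR adjusted p = 0.03).

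**Figure D4:**
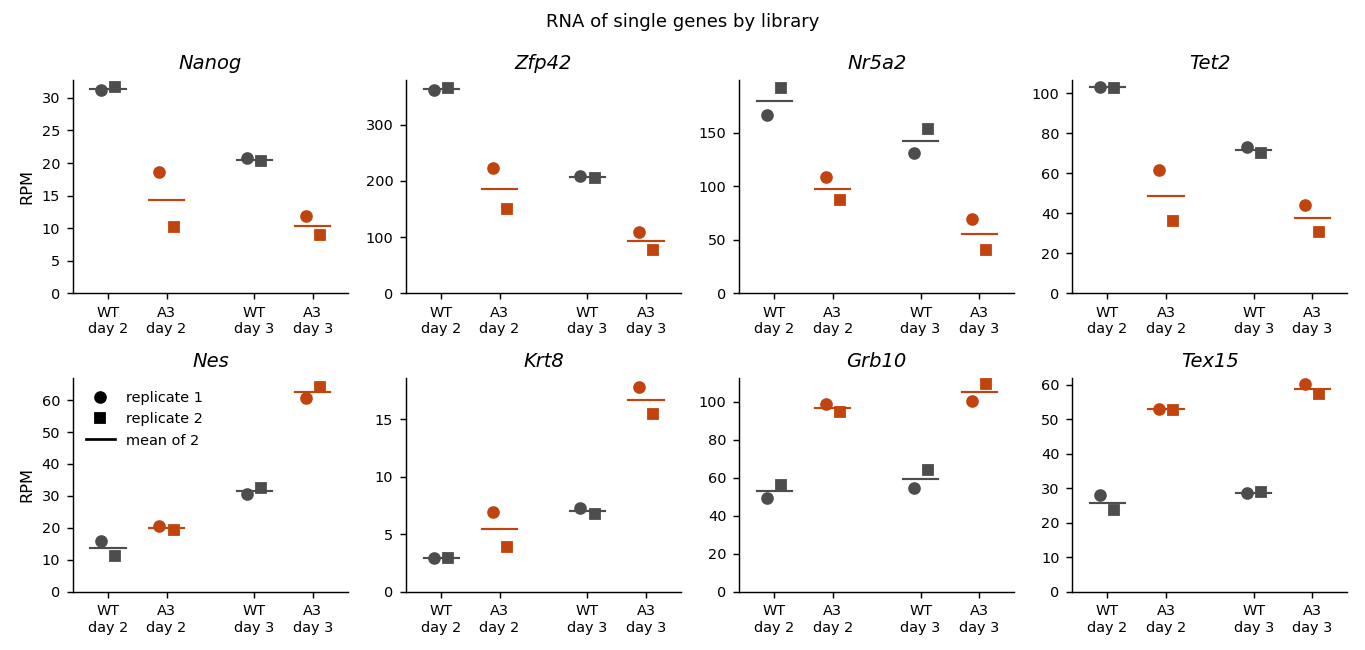
Levels in RPM of 8 genes in each library, for WT (grey) and A3 (orange) on days 2 and 3, with circles for replicate 1, squares for replicate 2 and a line at their mean. Nanog, Zfp42, Nr5a2 and Tet2 lie lower in A3 on either day, and Nes, Krt8, Grb10 and Tex15 lie higher.

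Markers of later fates gave single genes rather than groups. Of 16 neural precursor genes tested (26 in the list), Nes, an intermediate filament gene of neural progenitors, rose (6.25%). It was at 16.02, 11.1, 30.6 and 32.5 RPM in WT and at 20.7, 19.5, 60.8 and 64.2 RPM in A3. It was higher in A3 on both days, although the A3 levels of day 2 lay below the WT levels of day 3 (log2 fold change 0.78, SE 0.14, edgeR adjusted p = 0.04). Pax6, which specifies neural fate, had a log2 fold change of the other sign (-0.95, edgeR adjusted p = 0.09), and the list's median was -0.09. Among 12 genes of mesoderm, endoderm and trophoblast, the keratins Krt8 and Krt18, filament partners of simple epithelia, both rose (16.7%). Krt8 was at 2.92, 2.94, 7.30 and 6.77 RPM in WT and at 6.96, 3.89, 17.8 and 15.4 RPM in A3 (log2 fold change 1.07, SE 0.17, edgeR adjusted p = 0.03). The Nodal antagonists Lefty1 and Lefty2 stood at -1.46 and -1.03 (edgeR adjusted p = 0.08 and 0.07). Gata6, an endoderm factor chosen after its values were seen, was at 1.53, 9.26, 2.53 and 12.3 RPM in WT and at 21.6, 3.57, 23.2 and 4.94 RPM in A3. It was high in WT replicate 2 and A3 replicate 1 on both days, a split between the replicates of each genotype, under opposite replicate numbers.

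Lists of known SmcHD1 biology held few calls. Among 45 imprinted genes Grb10 rose (2.22%), with a list median of 0.10. Grb10, an imprinted adaptor of growth factor receptors, was at 49.7, 56.3, 54.5 and 64.2 RPM in WT and at 98.8, 94.8, 100 and 110 RPM in A3, and its groups lay wide apart (log2 fold change 0.85, SE 0.09, edgeR adjusted p = 0.01). Snrpn and Airn, imprinted transcripts of other clusters, had log2 fold changes of 0.62 and 0.48 (edgeR adjusted p = 0.12 each). Of 549 X-linked genes 3 rose (Col4a6, Gm7173 and Slitrk4) and 2 fell (0.911%), beside 0.866% of all genes, and the median was 0.03. Without overlap between the genotypes, 23 of the 549 lay above and 7 below WT, beside 264 and 361 of all genes. With the crossed pairing of replicates, an alternative added after the data were seen, 33 of the 549 were called higher and 8 lower, beside 356 and 341 of the 15005 genes. Among the SmcHD1-dependent genes of fibroblasts 0 of 36 passed in edgeR (2 at an unadjusted p under 0.05), and among the independent ones Mtm1, a lipid phosphatase gene, fell (log2 fold change -0.59, edgeR adjusted p = 0.03). None of the 25 genes for factors of Xist silencing, SPEN and the Polycomb subunits among them, passed in edgeR (2 at an unadjusted p under 0.05), with a median of -0.02. The 2-cell-like genes (16 tested), which encode early embryonic transcripts, also gave 0 calls in edgeR (0 at an unadjusted p under 0.05). Targets of p53 (19), of FGF-ERK signalling (17) and of BMP and Wnt signalling (13) gave 0 calls each in edgeR (5, 2 and 4 at an unadjusted p under 0.05).

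Among the genes that rose without overlap the largest fold changes were those of Slitrk4 (1.17), Gm7173 (1.15) and Gabra4 (1.12). Slitrk4, a synaptic membrane protein gene, and Gm7173 are X-linked, and Gabra4 encodes a GABA-A receptor subunit. Slitrk4 was low in every library, at 0.839, 0.763, 0.722 and 0.777 RPM in WT and at 1.653, 1.309, 2.005 and 2.134 RPM in A3 (edgeR adjusted p = 0.047). Gabra4 was at 9.09, 12.5, 7.66 and 9.40 RPM in WT and at 20.0, 28.4, 15.1 and 19.7 RPM in A3. Tex15, which is required in male germ cells, was at 28.1, 23.6, 28.5 and 28.8 RPM in WT and at 53.1, 52.8, 60.1 and 57.4 RPM in A3 (log2 fold change 1.04, SE 0.10, edgeR adjusted p = 0.01). The levels of Tex15 were nearly even within each genotype on both days. The others in the first 12 were Mcoln3, Cyr61, Olfr1372-ps1, Clu, Grb10, Nrg1, Trank1 and Atf3, at 0.75 to 0.90. They include the secreted matrix protein gene Cyr61 (0.89), the ErbB ligand gene Nrg1 (0.80) and the stress-responsive transcription factor gene Atf3 (0.75).

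The largest falls included those of G630093K05Rik at -2.70 and BB123696 at -2.21, the first of them resting on a few fragments per A3 library. Ntn1, which encodes the guidance cue netrin-1, was at 203, 164, 153 and 173 RPM in WT and at 70.5, 41.6, 76.1 and 55.2 RPM in A3, below WT in every library (log2 fold change -1.52, SE 0.17, edgeR adjusted p = 0.02). Others among the first 12 were Pira6, A330033J07Rik, Ttll6, Tgm1, Pla2g4e, 2410137M14Rik, Ptgs1 and Calcoco2, from -1.82 to -1.38, among them the prostaglandin synthase gene Ptgs1 (-1.39) and the transglutaminase gene Tgm1 (-1.45). Pira6 too rested on a few fragments, at 0.261, 0.212, 0.134 and 0.107 RPM in A3, where 3 fragments make 0.106 to 0.134 RPM. Its annotated span covers both strands and overlaps other genes. BB123696 was as low as 0.178 RPM in A3 day 3 replicate 2.

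Some of the called genes were neighbours. After the values were seen, stretches were sought in which the median log2 fold change of 9 successive tested genes stayed beyond 0.3 in either direction for at least 10 genes. There were 6 such stretches with 114 genes, and they held 9 of the 130 called genes. On chromosome 4, from 41114426 to 41769473 (mm10, Nol6 to Il11ra1), 18 of 18 genes were higher in A3, with a median of 0.53, and Ube2r2, Dcaf12, Ubap1, Kif24 and Fam219a passed. The Dom share of this stretch was 0.504, 0.494, 0.495 and 0.497 in WT and 0.350, 0.347, 0.346 and 0.346 in A3. The share of A3 was thus lower in every library, and by nearly the same amount, and it lay between 0.334 and 0.346 in the undifferentiated A3 stem cells. Before the stretch Nfx1 was at 0.06, and after it Ccl27a was at 0.71, while Dnajb5 (0.02) and Vcp (0.08) further on were near 0. Ube2r2, a ubiquitin-conjugating enzyme gene, rose by 0.74. DNA of the clones was not analysed here, so that for this stretch and the next a different number of copies of an allele and a different output per copy cannot be told apart.

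On chromosome 8, from 104293541 to 104641728 (mm10, Cmtm1 to Fam96b), 9 of 10 genes were higher in A3, with a median of 0.53, and Cmtm4, which encodes a membrane protein that stabilises PD-L1, passed (0.52). Here the Dom share was 0.417, 0.413, 0.392 and 0.395 in WT and 0.540, 0.545, 0.516 and 0.529 in A3. Stretches on chromosome 6 lay where the WT replicates differ. From A2m to Tapbpl 47 of 49 genes were lower in A3 (median -0.41, with Nanog and Dppa3 called), and from Lrp6 to Grin2b 13 of 14 were lower with Emp1 called. The stretch on chromosome 15, from Abcd2 to Adamts20, had 10 of 12 genes higher and Dom shares between 0.507 and 0.558 in all 8 libraries.

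**Figure D5:**
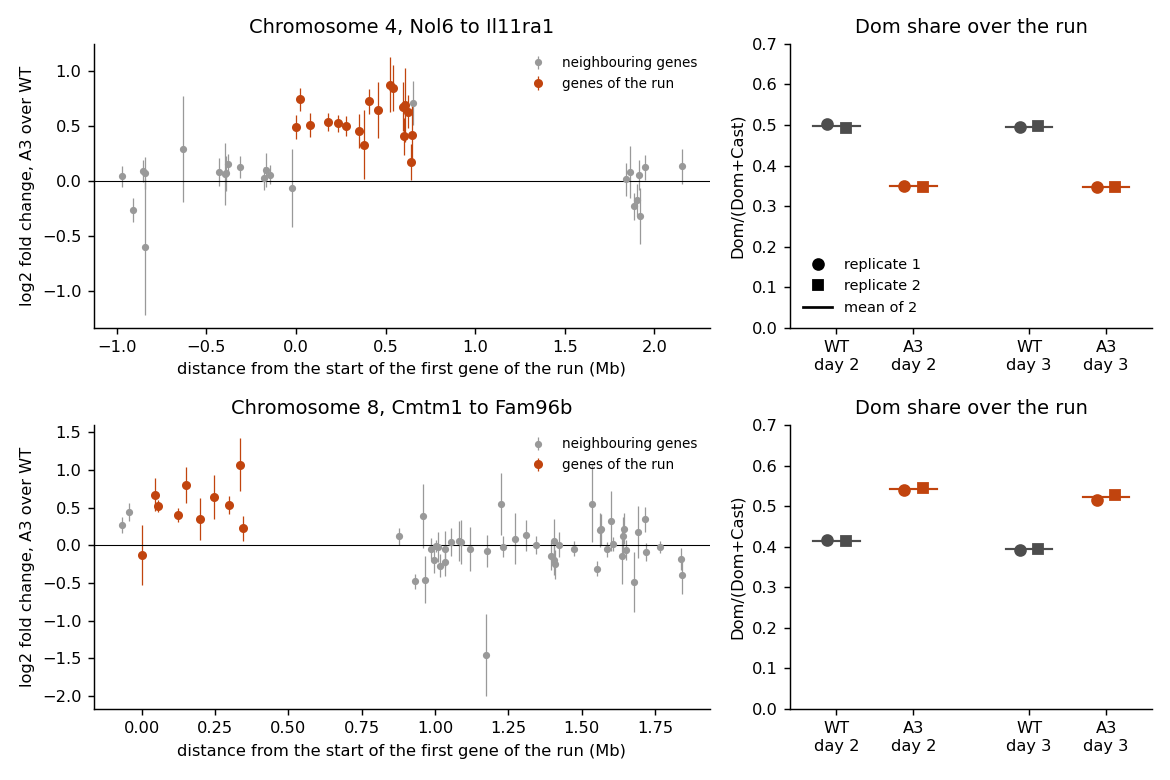
Left, edgeR log2 fold changes (A3 over WT, bars are 1 SE) of genes in the chromosome 4 and chromosome 8 stretches (orange) and of their neighbours (grey) by distance in Mb from the start of the first gene of the stretch; right, the Dom share over each stretch by library, with circles for replicate 1, squares for replicate 2 and a line at their mean. The A3 share is lower on chromosome 4, at 0.346 to 0.350, and higher on chromosome 8, at 0.516 to 0.545, than in every WT library.

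The early differences were then set beside other comparisons. On days 5 and 7, 0 of 15027 genes passed in edgeR between A3 and WT (1392 at an unadjusted p under 0.05). Of the 129 early called genes tested there 106 kept their direction, while the share of all genes that did so was not counted. By the study's account days 5 and 7 are later days of the same series and no independent samples. The naive list had a median of -0.69 on those days, with Nanog at -0.99 and Zfp42 at -1.07, while the general pluripotency list had one of -0.70 and the formative and primed list one of -0.46. Grb10 had the opposite sign there (-0.76), and Ntn1 was at 0.12. The change in the A3 effect between days 2 and 3 and days 5 and 7 passed for 0 of 15665 genes (885 at an unadjusted p under 0.05). The iXist-ChrX-Cast line, in which Xist is induced from the Cast X chromosome, shares no library with these. Its SmcHD1 knockout clones D5 and G6 against their own WT gave 0 of 14952 genes past the edgeR test on days 2 and 3 (459 at an unadjusted p under 0.05). Of the 130 genes 94 had the sign seen in A3, again without a count over all genes. There the naive list had a median of -0.07, Nanog was at 0.23 and Zfp42 at -0.42, Grb10 was at 0.74 and Tex15 at 0.02. The chromosome 6 stretch that holds Nanog, from A2m to Tapbpl, had a median of 0.34 in the Cast line, with 46 of 48 genes higher. Its Dom shares there lay between 0.382 and 0.556, and its median in A3 on days 5 and 7 was -0.50. A difference between the lines was tested for each gene and passed for 0 of 15420 in edgeR (693 at an unadjusted p under 0.05), so that these values do not show that the lines differ. The chromosome 4 stretch had a median log2 fold change of 0.01 and Dom shares between 0.485 and 0.518 in the Cast line, and of 0.58 in A3 on days 5 and 7. For the Dom-X share, 18 of 246 genes passed in limma on days 5 and 7, all higher in A3 (7.32%). The A3 effect differed from that of days 2 and 3 for 2 of 246, Taz and Taf1 (0.813%), for both of which the early mean share was lower in A3 (differences between the periods 0.130 and 0.127, limma adjusted p = 0.042 and 0.043).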

How the data were processed

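ChrRNA-seq libraries of iXist-ChrX-Dom WT and clone A3 on days 2 and 3 were analysed, and labels alone set the groups. Per the labels and the study's methods, the authors removed ribosomal RNA reads with Bowtie2 2.3.2, mapped the rest with STAR 2.4.2a to mm10 with variant positions masked, split fragments by allele with SNPsplit and counted them per gene and strand with featureCounts. The deposited values are raw counts of all, Dom and Cast fragments for 22556 genes. The deposited Dom table gives allele shares as fractions for 246 X-linked genes that the authors kept for allelic coverage partly in these WT libraries; only its gene list was used, and its 26 columns that carry other sample names were left out. RPM, the count per 1000000 counted fragments, is not divided by gene length, so levels are compared only within a gene.

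Total counts were tested with edgeR 4.0.16 (R 4.3.3; TMM, filterByExpr, quasi-likelihood, day as a factor plus genotype, Benjamini-Hochberg over all genes, threshold 0.05). Dom-X shares were tested with limma 3.58.1 (trend), and single values per library with an exact permutation within days. DESeq2 1.42.0 was an alternative. Tests with the 2 series of each genotype as the unit (counts of days 2 and 3 summed, shares averaged) were added after seeing the data. SE is the log2 fold change over the square root of F. The fits were tested on simulated data. Genes named for total counts are Xist, Smchd1 and Lrif1, the 12 largest non-overlapping changes past the threshold in each direction, and members of each list. Of a list, up to 4 called members are named, or the 2 with the smallest p. For shares they are the 10 genes with the smallest p, Yipf6, Igbp1, Taf1 and Pin4, and the escape genes. Other list members and all stretches of neighbouring genes were chosen after their values were seen. The members and lists were chosen with earlier results of these data known. Same-numbered A3 and WT libraries did not deviate together (correlation over genes -0.350 on day 2 and -0.366 on day 3), so the replicate numbers were not used as pairs. With the numbers crossed the correlation was 0.350 and 0.366, so that WT replicate 2 deviated with A3 replicate 1. With 2 replicates per genotype these are the same values with the sign turned. What the crossed libraries share was not tested. No replicate pair held identical values. Some results of the naming rule and of the stretches are not reported here.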

Additional observations from a re-analysis of the deposited data

Results flagged for a closer look

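Taz and Taf1 were the 2 X-linked genes whose genotype effect on the Dom-X share differed between the periods by the limma interaction test, out of 246 tested (0.813%). For Taz, which encodes the cardiolipin enzyme tafazzin, the A3 minus WT difference was larger on days 5 and 7 than on days 2 and 3 by 0.130 (limma adjusted p = 0.042). Its shares on days 2 and 3 were 0.333, 0.311, 0.213 and 0.215 in WT and 0.302, 0.267, 0.138 and 0.207 in A3. On either day both A3 libraries lay below both WT libraries. For Taf1 the same difference was 0.127 (limma adjusted p = 0.043), with early shares of 0.294, 0.302, 0.253 and 0.224 in WT and 0.276, 0.283, 0.213 and 0.208 in A3. Neither passed with the replicate number as a block.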

How the results depend on the processing

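With 2 libraries per genotype and day, 1 clone and WT replicates that differ as populations, the count of 130 called genes depended on the libraries used. It ranged from 0 to 155 when 1 library was left out and from 0 to 221 when 1 replicate of a genotype was left out. DESeq2's Wald test called 501 genes, and 374 passed without the filter on low counts. The fit over all 26 libraries of A3 and WT called 1, and day 2 alone or day 3 alone called 0 (770 and 1006 at an unadjusted p under 0.05). With the replicate number as a block 122 genes passed, 98 of them among the 130. With the days summed per series, added after seeing the data, 0 passed, and with the Dom-X shares averaged per series 5 of 246 passed in place of 0. A crossed pairing of the replicate numbers, added after seeing the data, called 703 genes (357 higher, 346 lower). TMM replaced by library totals called 104 and by DESeq2 size factors 125. The period difference in total counts, 0 genes, was 0 to 3 with 1 library left out, and the Cast line gave 26 genes with D5 alone. For Dom-X shares the period difference, 2 genes, became 10 on log2 of Dom over Cast and 0 with the replicate block, and the genotype difference in the median share ranged from -0.0207 to 0.0029 with 1 library left out, the latter without WT day 3 replicate 1.

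Values near 0 changed sign. With libraries or replicates left out in turn, the log2 fold change ranged from -0.18 to 0.12 for Smchd1 (above 0 in 6 settings), from -0.030 to 0.22 for Igbp1 and from -0.090 to 0.62 for Flna, both lowest without WT replicate 2. The Dom-X share difference ranged from -0.066 to 0.069 for Pin4, from -0.019 to 0.011 for Kdm6a, from -0.033 to 0.014 for Utp14a and from -0.061 to 0.0028 for Ddx3x. Pin4 was also at -3.32e-05 on log2 of Dom over Cast and at -0.0782 in edgeR on allelic counts. Over the 65 genes named for total counts, 1021 alternative values kept direction and side of the threshold, 431 lost and 27 gained the call, and 8 changed sign. The causes were not tested.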

Other observations

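Other called genes belonged to cell signalling and adhesion and were chosen after their values were seen, so that they carry no test as a group. Among secreted growth factors Fgf1 (-1.59), Vegfc (-1.03) and Pdgfa (-0.72) fell, as did the Wnt inhibitor gene Sfrp1 (-0.90), while the ErbB ligand gene Nrg3 (1.31) and the matrix protein gene Thbs1 (1.14) rose (log2 fold changes, edgeR adjusted p under 0.05). The adhesion molecule gene Ncam1 fell by 1.34 on the log2 scale and the basement membrane collagen gene Col4a6 rose by 0.82. Transcription factor genes were called in both directions, with Foxp2 at 0.95 and Creb5 at 0.91, and with Bnc2 and the thyroid hormone receptor gene Thrb both at -1.02. Khdc3, a gene of the oocyte and early embryo, stood at -1.18.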
